A study of Mus musculus with 18 samples.

Results

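Wild-type IMCD3 cells kept under fluid flow for 3 h were compared with wild-type IMCD3 cells kept static. The members are the 6 libraries whose labels give the wild-type genotype, 3 static and 3 under flow, of 18 libraries in the series, and 15283 of the 49845 gene names, those with at least 1 TPM in at least 3 of these 6 libraries. IMCD3 is an immortalised epithelial cell line of the mouse kidney, derived from the inner medullary part of the collecting duct, the last segment of the tubule, in an SV40-transgenic background that the labels give as Tg(SV40E)bri/7. The wild-type cells carry no other named allele, were at passage 10 to 15, and sat in microslide VI ibiTreat chambers at a shear stress of about 0.7 dyne/cm2 or without flow. The other 12 libraries come from Ift140 knockout and Dync2h1 knockout cells of the same line under the same static and flow conditions. Nothing in the labels says that the replicates came from different cultures, or from how many clones each knockout was made, so p-values measure only the spread between these samples, which may be technical.

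Tubule cells meet moving urine on their apical side, where a primary cilium, apical channels, the actin cortex and cell junctions are all known to take part in sensing shear. Early answers to shear in many cell types include signalling through the ERK kinase cascade, whose target genes encode its own inhibitors, release of growth factor ligands from the cell surface, and the oxidant response driven by the transcription factor NRF2.

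Levels are given as TPM, a length-corrected share of all transcripts in a library, after a small correction that made libraries comparable. The 6 libraries needed scale factors of 0.959 to 1.039, correlated at r = 0.98 to 0.986 within a condition and 0.96 to 0.969 between conditions across genes, and none stood apart. TPM keeps no sequencing depth, so the counting error of a value is unknown. The epithelial markers Krt8, Krt18, Krt19, Cdh16, Epcam, Pax8 and Hoxb7 were present, but Aqp2 and Emx1 were listed at 0 in all 6 libraries, and the collecting duct genes Aqp3, Avpr2, Scnn1a and Gata3 stayed under 1 TPM. The label of an inner medullary collecting duct cell therefore holds for general epithelial markers and not for the water channel, vasopressin receptor and sodium channel genes of that segment. Markers of intercalated cells were all below the filter, with 0 of 9 measured. Of 10 proximal tubule markers 4 were measured, led by Cubn (410 TPM static) and Lrp2 (21.8 TPM), and 5 were at 0. Of 8 thick limb and distal markers 2 were measured, Trpm6 (62 TPM) and Umod (1.38 TPM). Of 10 leukocyte markers 3 were measured, with a summed level of 13.4 to 15.9 TPM in static and 10.9 to 12.6 TPM in flow libraries, and Cd3e, Adgre1 and Tyrobp were at 0. In bulk RNA, fewer cells of a state and less RNA per cell cannot be told apart.

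Flow moved the expression of a broad share of the genes. Of the 15283 genes tested, 1700 rose (11.1%) and 1613 fell (10.6%) at an adjusted p under 0.05 in limma, and the median over all genes was -0.01 on the log2 scale. A change of at least 2-fold was called for 222 rises (1.45%) and 151 falls (0.988%), and one of at least 4-fold for 33 rises (0.216%) and 8 falls (0.0523%). The 3 flow libraries lay above all static libraries in 20.9% of the genes and below all of them in 20.8%. The 25 largest rises and 25 largest falls named below were chosen among genes without overlap. Their separation was thus set by the choice. Genes that rose held 7.66% to 8.36% of all TPM in static libraries and 12.2% to 12.7% under flow, and genes that fell held 8.59% to 8.96% and 5.82% to 5.9%. Log2 changes below are differences of log2(scaled TPM + 1), given with their SE, and understate the change of genes near 0. Levels are mean ± SD of n = 3, and values at single libraries are given in the order of replicates 1, 2 and 3.

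**Figure D1:**
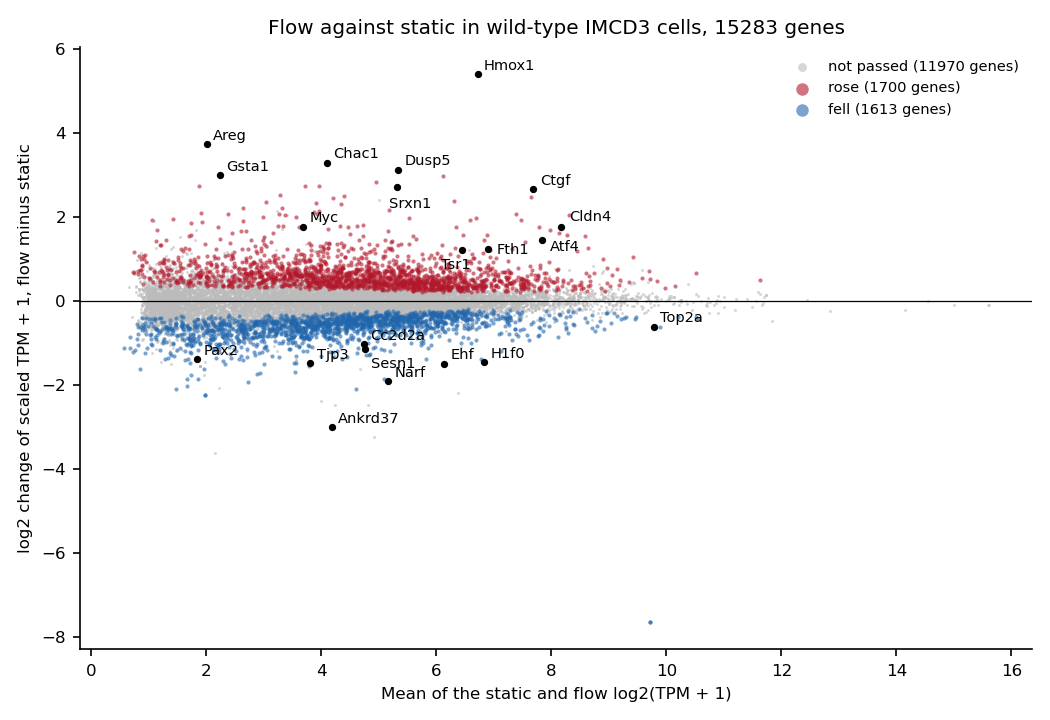
Each point is one of 15283 genes. The x axis is its mean level as log2(TPM + 1), and the y axis its log2 change with flow. Red points rose (1700 genes), blue points fell (1613 genes) and grey points did not pass. Hmox1 lies highest, at 5.39, and Ankrd37 is the lowest named gene, at -3.01. The point near the bottom is a pair of unmatched names with identical values, AC099934.2 and AC157822.2, whose flow and static libraries overlap.

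Hmox1 (GRCm38, chromosome 8, 75093621 to 75100589), which encodes heme oxygenase 1, the enzyme that opens heme and frees its iron, stood at 14.2, 17.3 and 14.2 TPM in the static libraries and at 734, 652 and 655 TPM under flow. Every flow library was far above every static library, a 44.6-fold difference of the means and a log2 change of 5.39 (SE 0.10, limma adjusted p = 5.78e-15). Several genes for the handling of heme and iron rose too. Fth1, the heavy chain of the iron store ferritin, went from 77.1 ± 8.49 to 181 ± 10.1 TPM (log2 1.22), Ftl1, its light chain, from 19.8 ± 2.55 to 44.2 ± 2.57 TPM (1.13), and Slc48a1, which carries heme out of lysosomes, from 15.8 ± 1.33 to 38.8 ± 3.86 TPM (1.25). Ftl1-ps1, a pseudogene copy with which Ftl1 can share reads, was listed far higher and rose too, from 435 to 732 TPM (log2 0.75). The split between them, and so the level and change of Ftl1, is uncertain. Tfrc, the transferrin receptor that brings iron in, rose from 104 ± 15.4 to 244 ± 43.4 TPM. In the whole heme and iron list 7 of 16 measured members rose, 0 fell and 9 did not pass, with a median of 0.22. Hmox2, the constitutive heme oxygenase, was at 95.5 TPM static and 103 TPM under flow and did not pass.

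The glutathione and thioredoxin genes, the main thiol defence of the cell and the classic targets of NRF2, rose in 13 of 23 measured cases, 10 of them at least 2-fold, and none fell. Srxn1, sulfiredoxin, which repairs over-oxidised peroxiredoxins, stood at 14.4, 14.03 and 15.3 TPM static and 101, 101 and 102 TPM under flow (log2 2.71, SE 0.10, limma adjusted p = 2.95e-11). The flow libraries were nearly equal and far above the static ones. Gclc and Gclm, the 2 subunits of the enzyme that limits glutathione synthesis, went from 80.2 ± 8.47 to 340 ± 29.0 TPM and from 48.3 ± 3.31 to 185 ± 9.99 TPM. Txnrd1, thioredoxin reductase, which overlaps Eid3 on its own strand (Eid3 rose too), rose from 155 ± 6.27 to 643 ± 56.6 TPM, Osgin1, an oxidant-induced growth inhibitor, from 6.51 ± 2.38 to 31.5 ± 3.56 TPM, and the glutathione export pump Abcc1 from 108 ± 2.43 to 209 ± 25.3 TPM. Gsta1, a glutathione transferase with close relatives in the genome, rose from 0.669 ± 0.371 to 12.2 ± 1.99 TPM. Gsr, glutathione reductase, at 317 and 362 TPM and Tkt, a pentose phosphate enzyme, at 440 and 494 TPM were the most abundant members that did not pass. Nfe2l2, the gene of NRF2 itself, rose from 27.3 to 50.9 TPM, and Sqstm1, which encodes the autophagy receptor p62, from 478 ± 12.8 to 987 ± 29.2 TPM. Slc30a1, a zinc exporter, rose 3.58-fold, from 10.99 ± 0.928 to 39.3 ± 1.81 TPM, with the metallothionein genes Mt1 (118 to 195 TPM) and Mt2 (64.0 to 107 TPM) and their regulator Mtf1 (5.55 to 7.98 TPM), while the zinc importer Slc39a10 fell from 7.75 to 4.89 TPM. The calls of Slc39a10 and Mtf1 were lost without WT flow replicate 3.

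Genes that restrain ERK signalling formed the list with the highest median, 1.07, and 16 of its 19 measured members rose, 10 of them at least 2-fold, with none that fell. Dusp6, a phosphatase that inactivates ERK in the cytoplasm, stood at 24.6, 22.2 and 24.2 TPM static and at 222, 192 and 169 TPM under flow (log2 2.98, SE 0.09, limma adjusted p = 4.10e-12). Flow replicate 1 was the highest, and the groups lay far apart. The nuclear phosphatase genes Dusp5 (12.6 ± 0.694 to 118 ± 20.1 TPM), Dusp4 (5.00 ± 0.309 to 39.2 ± 1.12 TPM) and Dusp2 (3.60 ± 0.659 to 20.4 ± 4.68 TPM) rose 9.42-fold, 7.84-fold and 5.66-fold. Spry2, a Sprouty inhibitor of receptor signalling, went from 1.49 ± 0.0807 to 7.52 ± 0.938 TPM. Dusp16 and Dusp7 did not pass, at 8.22 and 10.8 TPM and at 5.04 and 5.96 TPM.

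In the EGF family list the ligand genes Areg and Hbegf rose, and the ERBB receptor genes measured, Egfr, Erbb2 and Erbb3, did not. Areg, amphiregulin, was listed at 0 in static replicate 1 and at 0.106 and 0.177 TPM in the other static libraries, against 16.2, 13.8 and 10.9 TPM under flow (log2 3.73, SE 0.21, limma adjusted p = 5.93e-09). The transcript was thus close to undetected without flow. With static values this low, the filter could keep Areg only if each flow library held at least 1 TPM, so its presence in all of them was set by the filter. Hbegf, a ligand released by shedding, rose from 50.6 ± 2.56 to 204 ± 35.3 TPM, and Rhbdf1, which helps the shedding protease to the surface, from 92.9 ± 4.99 to 156 ± 10.8 TPM. Egfr, the receptor, was at 164, 151 and 150 TPM static and 178, 158 and 140 TPM under flow, which overlap (log2 0.03, limma adjusted p = 0.881). Erbb3, a partner receptor, fell from 92.0 ± 5.70 to 57.4 ± 1.96 TPM, and Errfi1, an inhibitor of the receptor kinase, rose from 43.1 ± 0.248 to 148 ± 11.01 TPM. Epha2, another receptor tyrosine kinase, rose from 89.9 ± 6.59 to 345 ± 42.9 TPM. Of 16 measured members 8 rose, 1 fell and 7 did not pass.

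**Figure D2:**
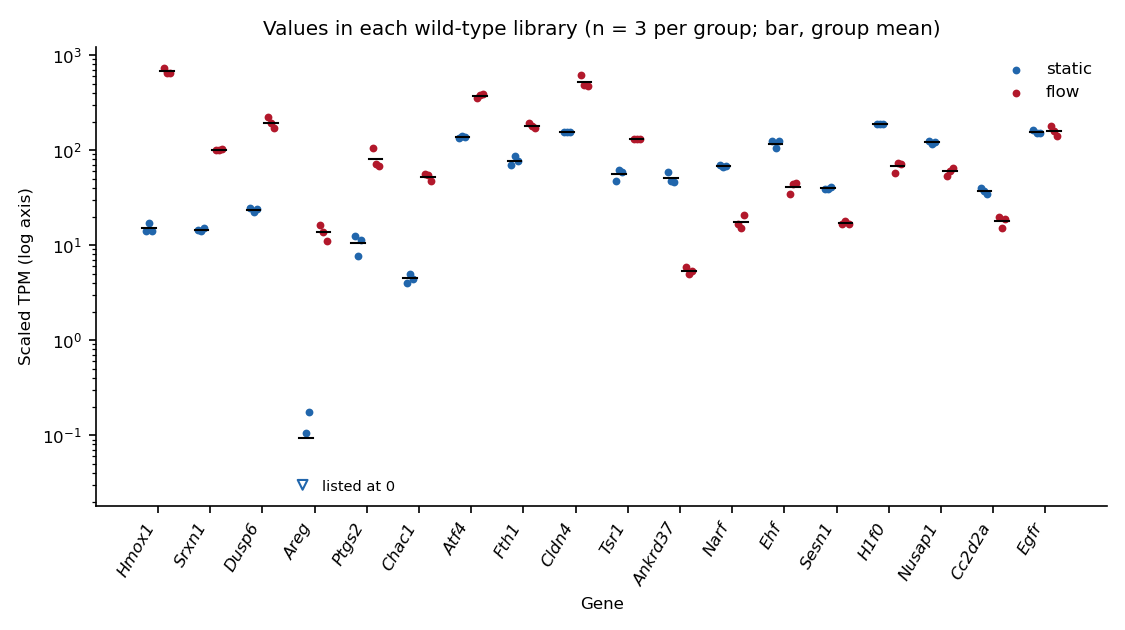
Scaled TPM on a log axis in each of the 3 static (blue) and 3 flow (red) wild-type libraries for 18 genes, with a bar at each group mean. The 2 groups are apart for every gene shown except Egfr, whose values overlap between 140 and 178 TPM. Genes from the 25 largest rises and 25 largest falls were chosen without overlap, so their separation was set by the choice. Flow libraries lay above all static ones in 20.9% of all genes tested and below all of them in 20.8%. The open triangle is the static library in which Areg is listed at 0, drawn at the foot of the axis.

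Many transcription factor genes of the early response rose. In the AP-1 and ATF list 9 of 14 rose and 0 fell, led by Atf3 (7.85 ± 0.802 to 48.6 ± 5.47 TPM) and Fosl1 (2.61 ± 0.417 to 17.6 ± 2.76 TPM), a Fos relative that appears late in growth factor responses. Mafk, a small Maf protein that pairs with NRF2 or binds as a repressor, rose from 14.3 ± 1.44 to 40.6 ± 2.33 TPM, and Jund, the most abundant member, was at 153 TPM static and 176 TPM under flow without passing. In the KLF, EGR, NR4A and IER list 12 of 18 rose and 0 fell. Egr1 went from 3.65 ± 0.655 to 18.9 ± 5.28 TPM, Klf6 from 50.3 ± 2.51 to 152 ± 14.1 TPM and Ier2 from 8.52 ± 0.337 to 30.2 ± 4.07 TPM. Myc, the growth regulator, stood at 5.93, 6.69 and 5.23 TPM static and 23.6, 22.4 and 21.7 TPM under flow, a 3.80-fold rise with flow libraries close to each other. Klf2, the textbook shear-induced factor of endothelial cells, was at 6.71 TPM static and 5.68 TPM under flow and did not pass; it was chosen for mention after its value was seen.

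Several genes of secreted signals, their receptors and surface proteases rose. In the chemokine and cytokine list 8 of 17 measured members rose and 1 fell, among the rises Gdf15, a stress-induced TGF-beta relative (84.1 ± 4.92 to 472 ± 38.7 TPM), the neutrophil attractant Cxcl1 (6.83 ± 0.513 to 42.3 ± 8.30 TPM), Lif (4.11 ± 0.375 to 16.6 ± 1.30 TPM) and Ccl2 (5.66 ± 1.46 to 21.4 ± 5.20 TPM). Tnfrsf12a, the receptor for the cytokine TWEAK, rose from 159 ± 14.01 to 488 ± 52.3 TPM. The prostaglandin genes moved at the steps of synthesis, export and reception. Ptgs2, cyclooxygenase 2, stood at 12.3, 7.65 and 11.4 TPM static and 106, 70.6 and 67.9 TPM under flow (log2 2.84, SE 0.19, limma adjusted p = 4.84e-08), with flow replicate 1 well above the other two. Abcc4, which exports prostaglandins, went from 79.0 ± 10.5 to 184 ± 33.9 TPM and Ptger4, a prostaglandin E2 receptor, from 8.07 ± 0.380 to 44.1 ± 5.34 TPM, while Pla2g4a, the phospholipase that supplies arachidonic acid, fell from 45.6 to 32.6 TPM. Of 9 measured members of that list 4 rose and 1 fell. The call of Pla2g4a was lost without WT static replicate 1 or 2 or WT flow replicate 2 or 3, and the 1 fall among chemokines without replicate 1 of either group.

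In the plasminogen list 6 of 12 rose and 1 fell, a fall lost without WT static replicate 2 or WT flow replicate 3. The urokinase receptor Plaur rose from 33.8 ± 5.76 to 179 ± 36.7 TPM, urokinase Plau from 67.4 ± 8.65 to 201 ± 23.1 TPM, and tissue activator Plat from 179 ± 11.9 to 532 ± 75.7 TPM. Both activators thus rose, 2.98-fold for Plau and 2.97-fold for Plat. The NF-kB list moved in both directions, with 11 of 23 rises such as Relb (33.1 to 58.8 TPM) and Tnfaip2 (12.7 to 28.7 TPM) and 4 falls such as Birc2 (27.5 to 17.5 TPM). Its falls were 2 without WT static replicate 1 and 2 without WT flow replicate 1. Of all genes 11.1% rose and 10.6% fell. In the interferon list 17 of 23 did not pass, 6 fell and 0 rose. The falls included Usp18 (24.2 to 9.11 TPM) and Ifit3 (35.9 to 15.9 TPM). Without WT flow replicate 1, 3 of 23 fell, near the share of all genes.

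The ATF4 list, genes of amino acid uptake and synthesis that the transcription factor ATF4 controls when translation initiation is restrained, had 21 of 24 measured members that rose, 13 at least 2-fold, with a median of 1.01. Chac1, which degrades glutathione, stood at 4.02, 4.94 and 4.40 TPM static and 55.6, 54.3 and 47.2 TPM under flow (log2 3.29, SE 0.14, limma adjusted p = 1.46e-10). Atf4 itself rose from 137 ± 4.12 to 375 ± 17.6 TPM, Trib3, a pseudokinase that dampens ATF4, from 6.41 ± 1.25 to 29.9 ± 1.69 TPM, Slc1a4, a neutral amino acid carrier, from 7.56 ± 1.16 to 21.1 ± 0.407 TPM, and Asns, asparagine synthetase, from 76.3 ± 5.13 to 146 ± 3.65 TPM. Ppp1r15a, which returns the initiation factor eIF2 to its active form, went from 9.38 ± 0.343 to 24.5 ± 0.899 TPM. Vldlr, a lipoprotein receptor, was the member that fell, and Stc2, at 31.03 TPM static and 19.2 TPM under flow, and Ddit4 did not pass. Transfer RNA synthetase genes rose in 5 of 21 cases, by at most 0.62 (Cars, 67.9 to 105 TPM), where 11.1% of all genes rose. Without WT flow replicate 1 or replicate 3 the count was 3 of 21, near that share.

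Most genes for protein folding in the endoplasmic reticulum did not pass. Of 20 measured members 1 rose, Herpud1 (65.7 ± 4.85 to 128 ± 6.31 TPM), and 5 fell, with a median of -0.26. Of all genes 10.6% fell and 11.1% rose, so falls were more frequent in this list. At an unadjusted p under 0.05 in limma, 10 members were lower and 1 was higher. Hspa5, the chaperone BiP and the usual marker of the unfolded protein response, was at 1540, 1449 and 1528 TPM static and 1352, 1206 and 1318 TPM under flow (log2 -0.22, limma adjusted p = 0.201). All flow values were below all static ones and the difference did not pass. Pdia4, a disulfide isomerase, fell from 358 ± 24.5 to 250 ± 23.6 TPM and Creld2 from 135 ± 2.73 to 94.5 ± 2.59 TPM. The count of falls was 2, with Pdia4 lost, without WT static replicate 1 and without WT flow replicate 2, 3 without WT static replicate 2 or 3, and 10 without the Ift140 knockout flow library that stands apart. Cytosolic heat shock chaperones rose in 12 of 19 cases with 0 falls. Hspa1b, an inducible Hsp70 gene, went from 27.2 ± 1.73 to 81.0 ± 10.1 TPM and Hspa1a, its near-identical neighbour with which it can share reads, from 0.737 ± 0.0804 to 5.31 ± 1.02 TPM. Hsp90aa1 rose from 633 to 925 TPM, and Stip1, a co-chaperone, was at 221 TPM static and 245 TPM under flow without passing.

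Most factors of ribosome assembly rose. Of 30 measured members 19 rose and 0 fell, with a median of 0.55. Tsr1, a factor of the small subunit, stood at 47.8, 62.0 and 58.8 TPM static and 130, 131 and 130 TPM under flow (log2 1.21, SE 0.10, limma adjusted p = 4.02e-07). The flow libraries were nearly equal and lay above each static library. Tsr1 overlaps Srr on the other strand and hosts the small RNA gene Snord91a. Rrs1, a large subunit factor, rose from 3.86 ± 0.866 to 9.98 ± 1.21 TPM, Wdr43 from 46.0 ± 4.90 to 97.5 ± 7.23 TPM, and Nop56, a core protein of box C/D snoRNPs, from 88.1 ± 3.90 to 152 ± 7.11 TPM. Npm1, the most abundant member, was at 652 TPM static and 668 TPM under flow and did not pass, nor did Ftsj3 (180 and 216 TPM). Splicing factor genes were split, with 8 of 24 rises such as Srsf2 (165 to 296 TPM) and Tra2b (99.7 to 155 TPM) and 2 falls. The rises were 5 without WT flow replicate 2 or without any of the 3 static replicates, and the falls 0 without WT static replicate 1 or WT flow replicate 2. The proteasome list had 3 of 30 rises, near the 11.1% of all genes that rose, and these became 1 without WT static replicate 1, 1 without WT flow replicate 2 and 0 without WT flow replicate 3. In the respiratory chain 0 of 26 members passed in limma, against 21.7% of all genes, 2 had an unadjusted p under 0.05, and the median was -0.07. Without WT flow replicate 1, 1 member passed.

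**Figure D3:**
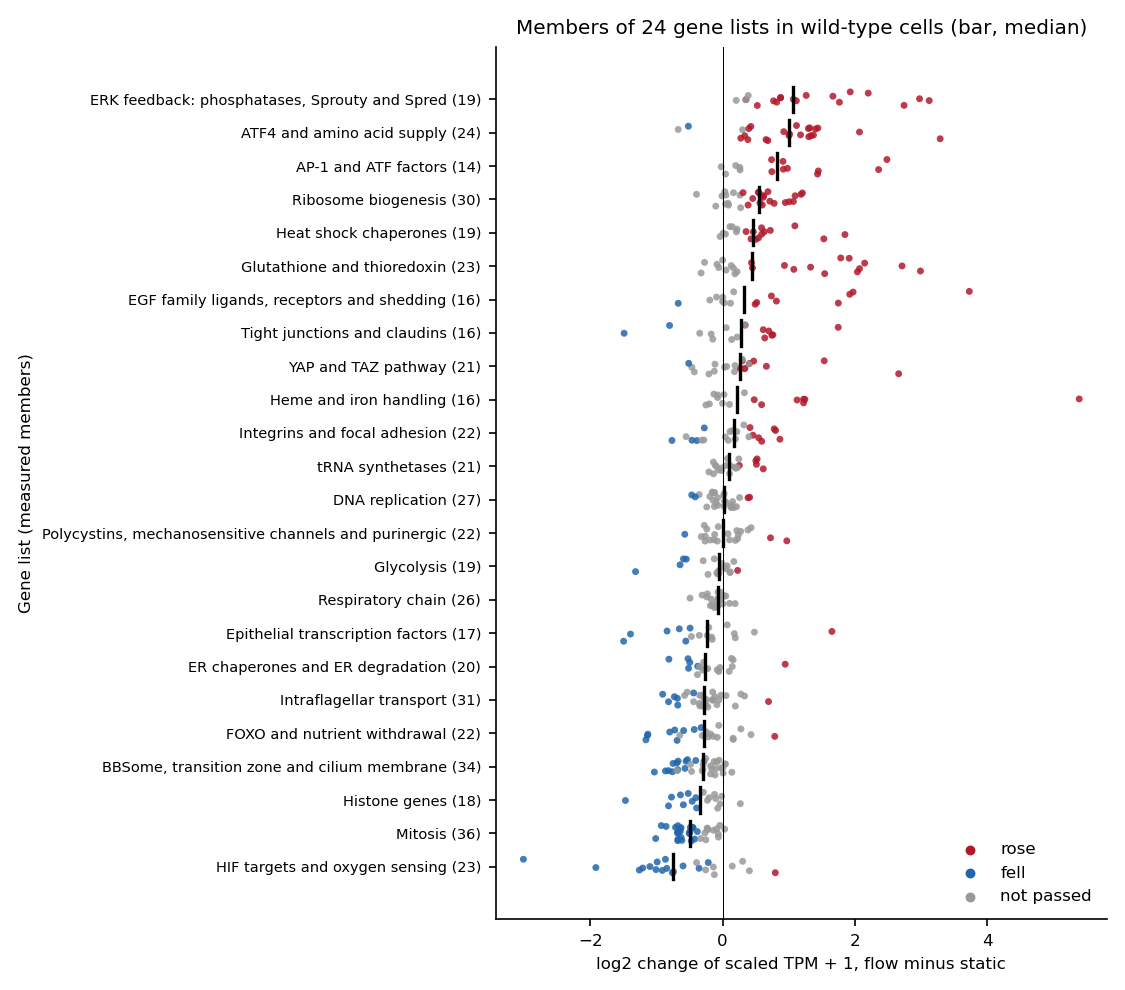
Log2 change with flow (x axis) of each measured member of 24 gene lists (y axis, number of members in brackets). Red points rose, blue points fell, grey points did not pass, and the black bar is the list's median. Medians run from -0.74 for the HIF list to 1.07 for the ERK feedback list, and the respiratory chain has grey points only.

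Most genes of the list for the hypoxia-inducible factor HIF fell. Of 23 measured members 15 fell, 6 at least 2-fold, and 1 rose (Bhlhe40), with a median of -0.74. Ankrd37 (GRCm38, chromosome 8, 45996902 to 46005707) stood at 58.2, 46.9 and 46.6 TPM static and 5.88, 4.97 and 5.28 TPM under flow, a 9.41-fold drop of the means (log2 -3.01, SE 0.11, limma adjusted p = 2.08e-11). Ankrd37 headed the 25 largest falls, which were chosen among genes without overlap between the groups. Lrp2bp, which overlaps Ankrd37 on the other strand, fell from 5.88 ± 0.361 to 0.896 ± 0.211 TPM, and since the strand setting of the counting is not given in the sources used here, their reads cannot be told apart. Narf fell from 68.3 ± 2.25 to 17.5 ± 2.74 TPM, Mxi1, a Myc antagonist, from 43.7 ± 4.92 to 17.6 ± 0.682 TPM, and the histone demethylase genes Kdm3a and Kdm4b from 136 ± 3.45 to 67.8 ± 12.1 TPM and from 26.4 ± 3.47 to 12.7 ± 0.592 TPM. Egln3, an oxygen sensor that HIF induces, fell from 6.71 to 4.10 TPM. Glycolysis genes, many of them HIF targets too, had 4 of 19 falls and 1 rise, a share near the 21.7% of all genes called. Eno2 (12.9 to 4.58 TPM), Slc16a3, the lactate exporter (23.5 to 14.7 TPM), Hk2 (29.0 to 19.0 TPM) and Pfkm (40.6 to 27.4 TPM) fell, the glucose carrier gene Slc2a1 rose from 139 to 164 TPM, and the abundant Pkm (1899 and 1828 TPM) and Aldoa (1042 and 1128 TPM) did not pass. The call of Pfkm was lost without any 1 of the 6 libraries, and that of Slc2a1 without any 1 of them except WT flow replicate 2.

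Promoter windows of RefSeq (build GRCm38.p6, 250 bases before the annotated start, read towards the gene) were searched on both strands for the core letters of several factors. A window was found for 9659 of the 15283 genes tested. For 6 pairs of a gene group and a set of letters, 1 window of a called member is shown. It had the most matches among the windows considered for display, so members outside these were not compared. Windows were also chosen for Txnrd1, with the NRF2 letters TGACNNNGC, and for Hspb1, with the letters GAANNTTC, and are not shown. Areg and Srxn1 both come from the 25 largest rises, and Ankrd37 from the 25 largest falls. The capitals mark the match. In Areg, the ligand that was near 0 without flow, it is the cAMP response element core TGACGT, with overlapping matches on the 2 strands; in Srxn1 the AP-1 letters TGANTCA; in Chac1 the ATF4 letters TGATGNAA; in Ankrd37 the HIF letters ACGTG; in Ankrd1 the TEAD letters GGAATG; and in Top2a the cell cycle letters TTTGAA.
Areg: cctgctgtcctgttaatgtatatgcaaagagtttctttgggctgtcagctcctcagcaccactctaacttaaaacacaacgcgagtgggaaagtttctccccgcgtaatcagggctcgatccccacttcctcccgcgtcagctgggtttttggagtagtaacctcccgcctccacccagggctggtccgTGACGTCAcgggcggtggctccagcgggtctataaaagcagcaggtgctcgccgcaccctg
Srxn1: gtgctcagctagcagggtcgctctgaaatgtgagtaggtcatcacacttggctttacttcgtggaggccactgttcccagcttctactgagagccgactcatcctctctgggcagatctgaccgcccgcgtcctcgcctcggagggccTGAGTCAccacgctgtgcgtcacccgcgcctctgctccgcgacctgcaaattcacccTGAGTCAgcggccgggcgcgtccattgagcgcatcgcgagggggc
Chac1: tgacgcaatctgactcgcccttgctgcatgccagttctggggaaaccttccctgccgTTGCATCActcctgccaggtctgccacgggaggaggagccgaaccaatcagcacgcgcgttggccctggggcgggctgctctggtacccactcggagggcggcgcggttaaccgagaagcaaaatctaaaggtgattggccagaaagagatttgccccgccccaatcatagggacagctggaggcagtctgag
Ankrd37: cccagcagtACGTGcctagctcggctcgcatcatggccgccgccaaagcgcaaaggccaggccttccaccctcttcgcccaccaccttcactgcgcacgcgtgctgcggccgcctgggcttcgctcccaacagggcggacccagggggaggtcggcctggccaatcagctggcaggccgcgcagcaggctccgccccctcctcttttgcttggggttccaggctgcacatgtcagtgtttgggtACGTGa
Ankrd1: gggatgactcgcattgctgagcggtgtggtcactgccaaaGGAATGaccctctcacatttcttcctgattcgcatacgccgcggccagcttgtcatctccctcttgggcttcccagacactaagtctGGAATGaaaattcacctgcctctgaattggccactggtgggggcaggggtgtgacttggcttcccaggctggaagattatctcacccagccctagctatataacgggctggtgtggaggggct
Top2a: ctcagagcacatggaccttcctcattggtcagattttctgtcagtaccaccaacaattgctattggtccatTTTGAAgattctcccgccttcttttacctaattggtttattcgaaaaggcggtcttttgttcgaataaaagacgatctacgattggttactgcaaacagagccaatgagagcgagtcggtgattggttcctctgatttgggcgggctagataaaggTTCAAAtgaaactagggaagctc

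The windows lie on GRCm38.p6 at chr5:91139349-91139598 (plus strand, Areg), chr2:152105274-152105523 (plus, Srxn1), chr2:119350992-119351241 (plus, Chac1), chr8:45999851-46000100 (minus, Ankrd37), chr19:36119845-36120094 (minus, Ankrd1) and chr11:99024190-99024439 (minus, Top2a). The Ankrd37 window lies inside the gene span given above, so the RefSeq start used for it differs from the outer end of that span. Which start these cells use was not tested. The HIF letters ACGTG were found for 14 of 19 members of the HIF list with a window (73.7%), for 25.3% of the tested genes with a window and in 16.6% of all windows. Of the 25 largest falls, 4 of 19 with a window held them (21.1%), as did 26.2% of all falls with a window. Falls as a group thus lay near the share of the tested genes. The TEAD letters GGAATG were found for 11 of 16 members of the YAP and TAZ list (68.8%), 12.9% of tested genes and 12.6% of all windows. The cell cycle letters TTTGAA were found for 11 of 31 mitosis genes (35.5%), 12.7% of tested genes and 16% of all windows, and the ATF4 letters TGATGNAA for 4 of 23 members of the ATF4 list (17.4%), 2.27% of tested genes and 3.45% of all windows. The cAMP element core TGACGT was found for 5 of 17 of the 25 largest rises that have a window (29.4%), 12% of tested genes and 6.47% of all windows, and the AP-1 letters for 3 of these 17, 5.48% of tested genes and 6.75% of all windows. In the AP-1 and ATF list 0 of 13 members with a window held the AP-1 letters. The NRF2 letters TGACNNNGC were found for 4 of 18 glutathione and thioredoxin genes (22.2%), 14.1% of tested genes and 10.2% of all windows. Of the 25 largest rises, 1 of 17 with a window held the NRF2 letters (5.88%), below the share of tested genes, against 18.1% of all rises with a window. The TEAD letters were likewise held by 1 of these 17 (5.88%). A match is a description of the letters in this window.

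Most genes of the mitosis list fell. Of 36 measured members 24 fell, 0 rose and 12 did not pass, with a median of -0.49. Nusap1, a spindle protein, stood at 126, 115 and 123 TPM static and 53.4, 60.8 and 65.3 TPM under flow (log2 -1.01, SE 0.11, limma adjusted p = 7.00e-06). Every flow library was far below every static library. Nusap1 overlaps Oip5 on the other strand, which fell too. Bub1b, a checkpoint kinase, fell from 217 ± 6.91 to 114 ± 10.1 TPM, the spindle motor Kif11 from 377 ± 20.01 to 244 ± 16.2 TPM, the kinetochore motor Cenpe from 209 ± 7.88 to 130 ± 8.17 TPM and Plk1 from 46.3 ± 2.19 to 29.7 ± 6.48 TPM. Cdk1 (377 and 313 TPM) and Prc1 (260 and 207 TPM) were the most abundant members that did not pass. Genes of DNA replication, which act earlier in the cycle, mostly did not pass: 2 of 27 rose and 2 fell, where 21.7% of all genes were called, and the median was 0.02. The rises were 1 without any 1 of the static replicates or WT flow replicates 2 or 3, and the falls 1 without WT static replicate 1. Mcm7, the most abundant of them, was at 708 TPM static and 650 TPM under flow. Histone genes fell in 9 of 18 cases with 0 rises, led by the linker histone of resting cells, H1f0, at 188, 190 and 186 TPM static and 57.6, 73.3 and 72.1 TPM under flow.

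Genes at the entry into the cycle moved in both directions. Ccnd1, cyclin D1, rose from 10.3 to 19.9 TPM, and the inhibitor genes Cdkn2d (18.2 ± 1.88 to 5.90 ± 0.580 TPM) and Cdkn1b (43.6 to 26.3 TPM) fell, as did the quiescence genes Ccng2 (210 ± 7.16 to 91.3 ± 15.0 TPM) and Rbl2 (49.6 to 28.4 TPM), while the inhibitor Cdkn2b rose from 36.1 to 56.6 TPM and Cdkn2a (111 and 115 TPM) did not pass. In all 5 of 24 rose and 6 fell. In the list of FOXO targets and nutrient withdrawal 9 of 22 fell and 1 rose. Sesn1, an inhibitor of the growth kinase mTORC1, stood at 38.6, 39.4 and 40.5 TPM static and 16.6, 18.03 and 16.9 TPM under flow (log2 -1.16, SE 0.10, limma adjusted p = 5.27e-07), and Klhl24 (84.2 ± 2.56 to 37.8 ± 1.21 TPM), Pik3ip1, an inhibitor of PI3 kinase (10.8 ± 1.25 to 4.42 ± 0.710 TPM), and Txnip (219 to 126 TPM) fell. Of the p53 and apoptosis list 11 of 25 rose and 4 fell. Plk3, Gadd45a and Plk2 rose (4.19 to 31.9, 29.1 to 82.2 and 255 to 614 TPM), and Bmf, a cell death gene of the BH3-only class, fell from 12.7 ± 1.38 to 3.22 ± 0.687 TPM. Cdkn1a, the p53 target p21, was at 4.76 and 5.03 TPM and did not pass; it was chosen for mention after its value was seen.

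Epithelial transcription factor and junction genes moved in both directions. Of 17 measured epithelial transcription factors 6 fell and 1 rose, where 10.6% of all genes fell and 11.1% rose. Ehf, an ETS factor of simple epithelia, stood at 124, 104 and 124 TPM static and 34.5, 44.2 and 44.5 TPM under flow (log2 -1.50, SE 0.11, limma adjusted p = 1.67e-07). Pax2, a factor of kidney development, fell from 4.79 ± 0.621 to 1.23 ± 0.410 TPM, while Grhl1 rose from 2.72 ± 1.30 to 10.3 ± 1.02 TPM and Pax8 (67.9 and 52.9 TPM) did not pass. The call of Pax2 was lost without WT static replicate 1 or WT flow replicate 3. At tight junctions 7 of 16 members rose and 2 fell. Cldn4, a claudin of the collecting duct, stood at 155, 153 and 156 TPM static and 619, 486 and 474 TPM under flow, 3.40-fold higher. Cldn7 (82.5 ± 5.85 to 139 ± 7.84 TPM), Cldn3 (23.3 to 36.2 TPM) and Ocln (31.3 ± 0.993 to 54.2 ± 9.22 TPM) rose, whereas the scaffold gene Tjp3 fell from 22.6 ± 4.24 to 7.33 ± 0.758 TPM.

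In the lists tied to cell tension, adhesion and matrix, called members stood beside many that did not pass, where 21.7% of all genes were called. Of 21 YAP and TAZ pathway genes 12 did not pass, while 8 rose and 1 fell. Ctgf, a secreted matricellular protein, stood at 69.1, 79.5 and 94.8 TPM static and 532, 502 and 512 TPM under flow, and Cyr61, its relative, rose from 223 ± 19.2 to 649 ± 35.3 TPM. Gm15270, a transcript that overlaps Ctgf on the other strand, rose with it, and their reads cannot be told apart. Ankrd1, another target, rose from 340 ± 13.6 to 539 ± 39.0 TPM, and Amotl2, also a target, was at 179 and 165 TPM and did not pass. The focal adhesion genes Vcl (130 to 224 TPM), Zyx (37.1 to 68.4 TPM) and Bcar1 (60.7 to 107 TPM) rose, as did Epha1, which overlaps Zyx on the other strand, and 7 of 22 members rose against 4 that fell; the falls were 2 without WT static replicate 2 and 2 without WT flow replicate 2. Of 20 matrix genes 6 rose and 0 fell, among them Thbs1 (230 to 529 TPM) and Lamb1 (310 to 489 TPM). Of the actin list 9 of 26 rose and 2 fell, with Fhl2, a coactivator at focal adhesions, at 113 ± 2.36 and 299 ± 4.25 TPM. Actb was at 2859 and 3298 TPM and did not pass.

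Counts for candidate flow sensors and collecting duct transporters stand beside the 21.7% of all genes that were called. Of 22 measured genes for polycystins, mechanosensitive channels and purinergic signals 2 rose and 1 fell, with a median of 0.01. Piezo1, a stretch-activated channel, rose from 72.8 ± 2.78 to 122 ± 14.01 TPM and Lrrc8a, the essential subunit of the volume-regulated anion channel, from 7.49 ± 1.15 to 15.7 ± 2.15 TPM. Piezo1 overlaps Ctu2 on the other strand, which rose from 31.3 to 45.6 TPM, and Lrrc8a overlaps Gm28035 on its own strand, which rose from 4.58 to 8.70 TPM. Pkhd1, the fibrocystin gene, was at 338 and 285 TPM and did not pass. The 1 fall was lost without any 1 library except WT flow replicate 1, without which 2 fell. Of 15 measured transport genes 2 rose, Sgk1 and Slc5a3, and 1 fell, Nr3c2, the mineralocorticoid receptor gene (4.16 to 2.22 TPM). Slc5a3 overlaps Mrps6 on its own strand, which rose too, and lost its call without WT static replicate 3 or WT flow replicate 1. Sgk1, the kinase that steroid hormones and osmotic stress induce, stood at 15.9, 10.6 and 12.8 TPM static and 58.2, 46.9 and 40.6 TPM under flow. Among clock genes Cry1, a repressor of the clock, rose from 13.96 ± 2.32 to 34.2 ± 1.01 TPM and Dbp, a clock output factor, fell from 6.45 ± 0.196 to 2.92 ± 0.650 TPM, as did Sphk2, which overlaps it on the other strand. In that list, which also holds glucocorticoid targets, 6 of 16 rose and 2 fell, and the rises were 3 without WT static replicate 3, WT flow replicate 1 or WT flow replicate 2.

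Genes of the cilium itself fell or did not pass, with the exception of Kif17. Of all genes tested 10.6% fell and 11.1% rose. Of 34 genes for the BBSome, the transition zone and the ciliary membrane 13 fell and 0 rose, with a median of -0.29; without WT flow replicate 2 the count was 8. Cc2d2a, a transition zone protein, stood at 39.9, 37.0 and 34.9 TPM static and 19.6, 15.1 and 18.7 TPM under flow (log2 -1.03, SE 0.16, limma adjusted p = 0.000323). Invs, inversin, fell from 16.8 ± 2.27 to 9.06 ± 0.355 TPM and Bbs9 from 26.7 ± 3.90 to 15.5 ± 2.41 TPM. In intraflagellar transport, the traffic along the cilium, 6 of 31 fell, among them Wdr19 of complex A (51.0 ± 4.25 to 28.5 ± 2.52 TPM). The 1 rise was the motor gene Kif17, from 0.301 ± 0.0894 to 1.11 ± 0.102 TPM. Falls and rises of this list together were a share near the 21.7% of all genes called. Kif17 shares its strand with Sh2d5, which overlaps it and rose from 2.97 to 14.7 TPM, so reads of the 2 genes cannot be told apart. The call of Kif17 was lost without WT static replicate 1 or 3 or WT flow replicate 3. Of 25 centrosome and cilium disassembly genes 7 fell and 0 rose; the falls were 3 (and 1 rose) without WT static replicate 1, 2 without WT static replicate 3 and 4 without WT flow replicate 3. Among all genes, those that fell were longer, with a median span of 22.3 kb and 8 exons in the longest transcript against 15.1 kb and 5 exons for genes that rose and 16.5 kb and 6 exons for all genes tested. Annotated pseudogenes were 280 of the rises, 32 of the falls and 1838 of all genes tested. The part of gene length and of pseudogene copies in these calls was not tested.

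The knockout lines give the same contrast in other libraries. These libraries shared the estimate of the spread from which the wild-type calls were made, and so were not fully outside the choice of the leading genes. Ift140 and Dync2h1, which encode parts of the retrograde transport of the cilium, did not pass for flow in wild-type cells (18.2 and 16.8 TPM, and 39.8 and 31.7 TPM). Ift140 had 6.65 TPM in its static knockout group and 10.2 TPM in the flow group, and Dync2h1 13.4 and 9.34 TPM in its own. Of the 25 largest rises in wild type all 25 also rose in the Ift140 knockout and all 25 in the Dync2h1 knockout, where 8.83% and 11.7% of all genes rose. Of the 25 largest falls 23 and 22 fell, where 8.87% and 8.02% of all genes did. Il15 and Ccdc159 did not pass in the Ift140 knockout, and Ikzf2, Ccdc159 and Ppm1k did not pass in the Dync2h1 knockout. Over all 1700 wild-type rises 56.6% rose in the Ift140 and 65.4% in the Dync2h1 knockout, and over all 1613 falls 54.7% and 48.7% fell. Passing in one line and not in another does not show a difference, so the difference was tested as an interaction.

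The size of the response differed from wild type for 30 genes in the Ift140 knockout (0.196%) and 61 in the Dync2h1 knockout (0.399%). These comparisons share the wild-type libraries, and genes picked for a large wild-type change are not an independent measure of a smaller change elsewhere. Dusp6 rose from 23.6 to 194 TPM in wild type, from 63.0 to 223 TPM in the Ift140 knockout and from 80.0 to 176 TPM in the Dync2h1 knockout, and the log2 response differed from wild type by -1.17 (limma adjusted p = 0.000454) and -1.85 (limma adjusted p = 2.11e-06). Levels under flow were thus close in the 3 lines, while static levels were higher in the knockouts; levels were not compared between lines by a test. Ctgf went from 81.1 to 515 TPM in wild type, 249 to 630 TPM and 346 to 776 TPM, with differences of -1.33 (limma adjusted p = 0.000483) and -1.50 (limma adjusted p = 7.48e-05). Hspa1b had the opposite sign. It rose from 27.2 to 81.0 TPM in wild type, from 68.9 to 618 TPM in the Ift140 knockout and from 49.2 to 377 TPM in the Dync2h1 knockout, a response higher by 1.62 (limma adjusted p = 1.52e-05) and 1.38 (limma adjusted p = 6.82e-05). Hmox1 reached 811 and 826 TPM under flow in the knockouts against 680 TPM in wild type, and its response did not differ by the test (-0.51, limma adjusted p = 0.255, and -0.24, limma adjusted p = 0.685). Without Ift140 knockout flow replicate 3, which stood apart with a scale factor of 1.207, the counts were 70 and 150. Fitted without the third line they were 5 and 155. The Ift140 count was 11 without Ift140 knockout static replicate 1, and the range over libraries left out was 31 to 49 for Dync2h1.

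**Figure D4:**
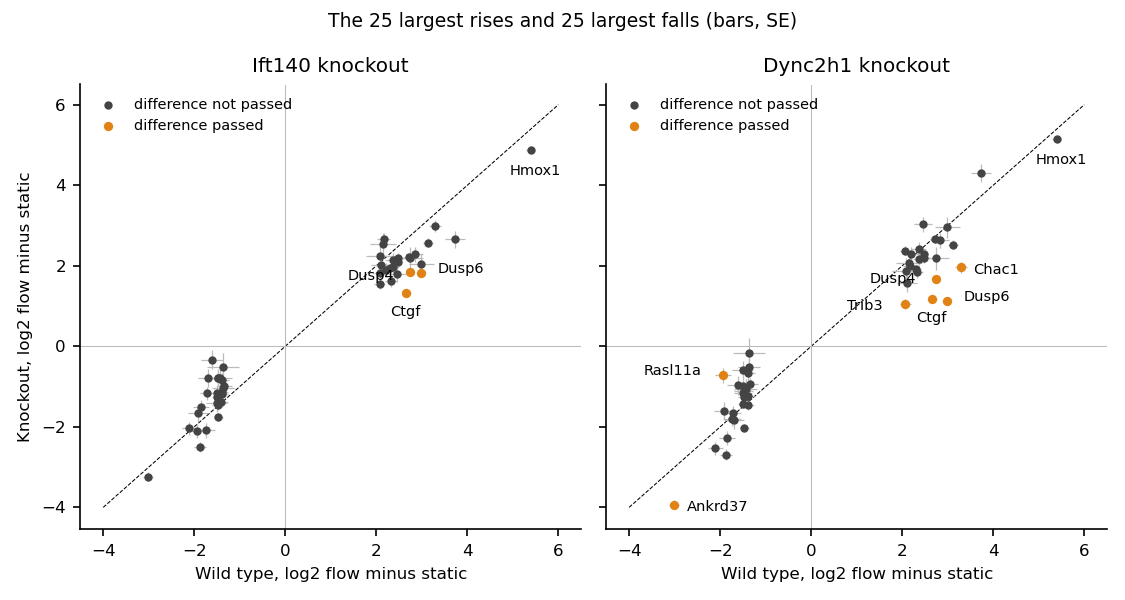
Log2 change with flow in wild type (x axis) against the Ift140 knockout (left) and the Dync2h1 knockout (right, y axis) for the 25 largest rises and 25 largest falls of wild type, with bars of 1 SE and a dashed line of equal change. Orange points have a response that differed from wild type. They are 3 genes on the left and 7 on the right, and Dusp6, Dusp4 and Ctgf are in both.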

How the data were processed

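RNA from 6 wild-type libraries (3 static, 3 flow) and 12 knockout libraries was sequenced by the authors. The deposited tables hold TPM per gene name, one table per library, made with FastQC 0.11.5, Bowtie2 2.1.0 and RSEM 1.2.31 on mm10 and GRCm38.p5, per the submitters' processing notes, and TPM keeps no depth. Roles of these tools, annotation release and strand setting are not given in the sources used here. The row of totals was dropped. TPM were divided by a scale factor per library, from a trimmed mean of log ratios (30% of ratios and 5% of abundances trimmed). Then log2(scaled TPM + 1) was fitted with limma 3.58.1 in R 4.3.3, with 6 group means over all 18 libraries and a mean-variance trend. Benjamini-Hochberg adjustment ran over 15283 genes, called at 0.05. The filter was 1 TPM in 3 wild-type libraries. Coordinates are from GENCODE on GRCm38 (47120 of 49845 names matched as given, 448 by an older symbol). The fit was tested on simulated data.

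Members and gene lists were chosen with earlier results of these data known. The text names the 25 largest rises and 25 largest falls. These were called, with at least 5 TPM on average in the higher group, no overlap between groups and no predicted names. Of each list it names up to 6 called members by smallest p and up to 2 others by level. Ift140 and Dync2h1 are named too. Of the largest differences between responses, up to 8 in each direction are named. These are from genes also called in wild type with at least 5 TPM in some group. Promoters shown had the most matches among the windows considered for display. Hoxb7, Vldlr, Bhlhe40, Klf2, Cdkn1a, AC099934.2, AC157822.2 and the overlapping or copied genes Ftl1-ps1, Gm15270, Srr, Snord91a, Oip5, Sh2d5, Ctu2, Gm28035, Mrps6, Epha1, Sphk2 and Eid3 were chosen after their values were seen. Replicate numbers were not used as pairs in the main fit. Deviations of same-numbered wild-type libraries correlated at 0.0783, 0.0138 and 0.0695, which cannot show whether those libraries were handled together. Other scalings, pseudocounts, filters, designs and tests were tried as alternatives. Some items are not reported here.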

Additional observations from a re-analysis of the deposited data

Results flagged for a closer look

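The results here are genes whose response to flow differed between a knockout line and wild type by the interaction test (limma, Benjamini-Hochberg adjusted), as log2 differences of the knockout response minus the wild-type response. The 2 sets of differences share the wild-type libraries.

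In the Ift140 knockout the difference was -1.17 for Dusp6, -1.33 for Ctgf, -1.03 for Kctd11, -1.21 for Plau, -0.97 for Tfrc, -1.12 for Krt17, -0.96 for Ier3 and -1.3 for Eno2. It was 2.39 for Hspa1a, 1.62 for Hspa1b, 2.37 for Gm20481, 0.69 for the pseudogene Hsp25-ps1, 1.68 for the pseudogene Tmem181c-ps and 0.87 for Kank3. Hspa1a and Hspa1b are near-identical genes that can share reads, and Gm20481 overlaps Hspa1a on the other strand, so the reads of these genes cannot be told apart. The calls of Tfrc and Eno2 were lost when 1 wild-type library was left out, for Tfrc WT static replicate 2 or 3 and for Eno2 any 1 of the 6.

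In the Dync2h1 knockout it was -1.33 for Chac1, -1.85 for Dusp6, -1.5 for Ctgf, -1.26 for Kctd11, -1.74 for Lfng, -1.18 for Tmem37, -1.15 for Egln3 and -1.21 for Lpin1. It was 1.07 for Hspa1a, 1.38 for Hspa1b, 0.8 for the Hsp70 partner Dnaja1, 1.35 for Gm12976, 0.78 for Irf1, 0.73 for Kank3, 0.65 for Hist1h3d and 1.22 for Rasl11a, which fell in wild type. Lfng, a Notch modifier, went from 16.6 to 9.82 TPM with flow in this line and rose in wild type. The call of Hspa1a in this line was lost without WT static replicate 3.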

How the results depend on the processing

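TPM files keep no depth, so counting error is unknown, and 3 libraries a group limit precision. Of 420 named genes (400 with the filter at 5 TPM), 0 changed direction where called in wild type, over the alternatives other than those that leave out 1 knockout library by its replicate number, which were run for the differing responses only. The wild-type calls were 920 (543 rises, 377 falls) against a 1.2-fold change instead of 0, and genes past 2-fold were 154 with a pseudocount of 5. Leaving out 1 library gave 2368 to 2756 calls (1254 to 1493 rises, 1114 to 1278 falls) and 357 to 400 past 2-fold. Ccdc159 was the 1 of the 50 leading genes to lose its call, without WT flow replicate 2 (limma adjusted p = 0.05039) and against 1.2-fold. With the replicate number as a block there were 2875 wild-type calls, and 6 and 18 differing responses for the Ift140 and Dync2h1 knockouts.

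The counts of differing responses moved most. For the Ift140 knockout (30) they were 18 with the scaling as deposited, 56 with a filter of above 0 in 1 wild-type library, 5 with its own and the wild-type groups alone, 70 without the flow library that stands apart, 170 with weights per library and 6 against 1.2-fold, and 11 to 70 with 1 library left out. For the Dync2h1 knockout (61) they were 155, 150, 331 and 17 with the groups alone, without the Ift140 library, with weights and against 1.2-fold, and 31 to 49 with 1 library left out. The cause was not tested.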

Other observations

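Cholesterol and fatty acid synthesis genes fell in 8 of 30 cases and 1 rose, where 10.6% of all genes fell and 11.1% rose. Mvd, an enzyme of cholesterol synthesis, fell from 60.1 to 36.4 TPM. In the TGF-beta and BMP list 9 of 25 rose, such as the repressor gene Tgif1 (21.8 to 59.9 TPM), and 3 fell, such as the inhibitor gene Smad6 (10.8 to 4.59 TPM), and the rises were 5 without WT static replicate 2.

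The names AC099934.2 and AC157822.2 carried the same value in every library, 3995, 2075 and 878 TPM static and 907, 0 and 0 TPM under flow, and have no match in the annotation used.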
